A study of Coffea canephora with 12 samples.

Results

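At 21 dai (days after induction), when the first embryogenic structures are seen on leaf explants of *C. canephora*, 300 genes of 25574 stood far above their level at every earlier time point. They were chosen by their measured levels. Levels as CPM (the count of a gene over the reads in genes of the library, scaled to 1000000 reads) plus 0.5 were compared, and a gene passed where the lower of the 2 libraries of 21 dai was at least 4 times the highest of the 10 earlier libraries. The rule was passed by 526 genes (2.06% of all genes), and the 300 with the largest ratio were kept as members (1.17%). Since the rule used the levels at 21 dai, the rise itself is described here with no test, and tests were run only among the earlier time points. At 1 and 2 dai 34 of the 300 (11.3%) were called higher than before induction, a share near that of all genes tested (12.9%), and without the libraries of 21 dai 19 of the 178 that could be tested (10.7%, all genes 11.7%).

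The samples were leaves of plantlets kept in vitro and, after induction, discs cut from such leaves. At 14 dbi (days before induction) the plantlets were on MS medium with no growth regulators, and this time point is the control of the series. At 9 and 0 dbi they were on MS medium with naphthaleneacetic acid (an auxin) and kinetin (a cytokinin), which is the pretreatment proper, although 14, 9 and 0 dbi are called pretreatment together below. At 1, 2 and 21 dai the explants were in medium with Yasuda salts and benzyladenine (a cytokinin), in liquid and in the dark, whereas plantlets had grown under a light and dark cycle. Wounding, medium, light and age therefore changed together between the plantlet and the explant samples and cannot be told apart. No age of the plantlets and no genotype other than the variety Robusta is given. Each time point had 2 libraries, which the series describes as sequencing replicates of a biological sample, so that p-values measure only the spread between libraries, which may be technical. The number of plants behind a sample is not stated in the sources used here.

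In somatic embryogenesis, cells of the plant body that are not the product of fertilization form embryos that pass through globular, heart, torpedo and cotyledonary stages. An auxin pretreatment followed by a cytokinin medium is a common way to bring this about in leaf tissue, and embryos often start from cells near the cut edge. Developing plant embryos are known for genes that are little used in leaves, such as those of storage proteins, of oil body proteins and of regulators of embryo identity. The members are described by gene ID, because neither the files nor the annotation used here pairs these IDs with a function, and no role is assigned to any of them. No marker list could be applied for the same reason, so the embryogenic label rests on the stage that the study names and not on marker genes. Each library is from bulk tissue, in which more cells of a kind and more RNA per cell cannot be told apart.

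Reads in genes ran from 10091539 to 36525500 per library, with a median of 22765039, and 3 counts correspond to 0.0821 to 0.297 CPM. The shallowest library was replicate 1 of 21 dai, and it also had the largest share of reads with low mapping quality (20.3%). For 4 libraries, all of them a replicate 1 (of 2 dai, 0 dbi, 14 dbi and 21 dai), it lay between 17.6% and 20.3%, and for the remaining 8 between 11.2% and 12.7%. The 4 libraries of 9 dbi and 1 dai stood apart in another way. They had 554 to 1026 genes with 1 to 10 reads, against 2198 to 2765 in the other 8, and 17204 to 19116 genes with any read, against 19833 to 22257. How far this sets the members' zeros in these 4 libraries was not tested, and results that rest on them are given with and without them. Without the libraries of 9 dbi and 1 dai, 616 genes passed the rule, and 264 of the 300 members were among the 300 with the largest ratio.

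The ratio of the members ran from 6.92 to 485, with a median of 11.5. It was at least 10 in 183 members, at least 20 in 69, at least 50 in 19 and at least 100 in 5. The lowest ratios inside were 6.95 for Cc00_g04920, 6.92 for Cc04_g05350 and 6.92 for Cc03_g08870. Just outside were Cc07_g03380 and Cc06_g05560, both at 6.92, and Cc02_g35700 at 6.90, so the members end within a continuous range of ratios.

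**Figure D1:**
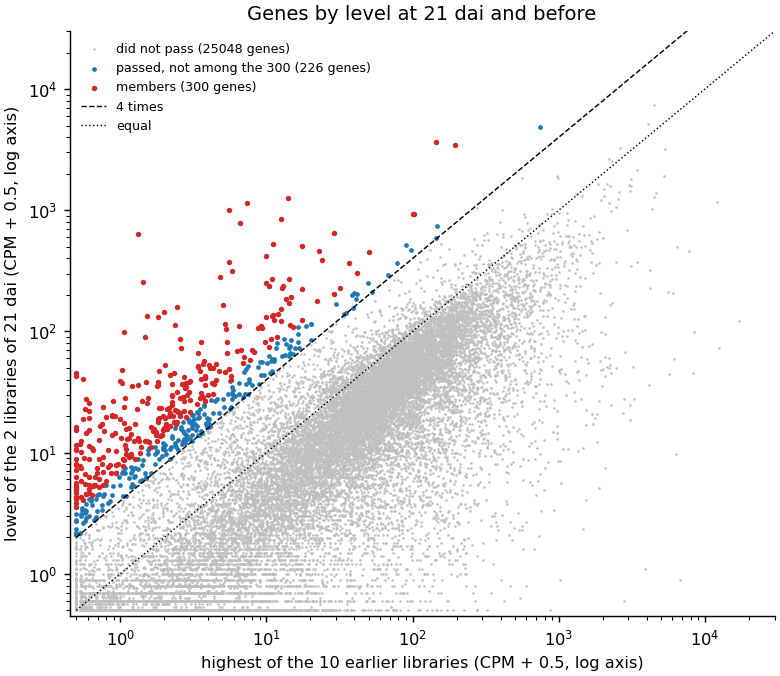
Level of each of the 25574 genes in the highest of the 10 earlier libraries (x axis) and in the lower of the 2 libraries of 21 dai (y axis), both as CPM + 0.5 on log axes. The 300 members (red) lie above the 226 other genes that passed (blue) along the dashed line of 4 times, and most of them have a highest earlier value under 10 CPM.

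A member was called silent before 21 dai where it was under 1 CPM in each of the 10 earlier libraries. By this definition 126 of the 300 members (42.0%) were silent, against 21.3% of all genes. The rule used these earlier values to choose the members. This share and that of members with no read are therefore described only, and no difference from all genes is read from them. With a limit of 0.5 CPM 89 members were silent, and with 2 CPM 183. Without the 4 libraries of 9 dbi and 1 dai, 136 members were under 1 CPM in each of the other 6. No read at all was found in the 10 earlier libraries for 21 members (7.0%), against 9.85% of all genes. Most of the genes with no earlier read, 2159 of 2518, also had none at 21 dai. Of the members that were not silent, 138 had a highest earlier value of 1 to 10 CPM and 36 reached 10 CPM or more. Thus the members ranged from genes with no earlier read to genes well within the measured range in leaves, and 11 of them were at 1 CPM or more in all 10 earlier libraries.

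Among the silent members, Cc01_g08940 had the largest ratio of all (485). Its level was 0.263 and 0.303 CPM at 14 dbi, 0 in both libraries of 9 dbi, 0 and 0.290 CPM at 0 dbi, 0 in both libraries of 1 dai, 0.821 and 0.301 CPM at 2 dai, and 1112 and 641 CPM at 21 dai. The gene thus went from a few reads in some libraries to the highest lower value at 21 dai of any silent member (641 CPM). Replicate 1 of 2 dai set its highest earlier value, and the ratio without that library was 799.

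Cc00_g34420 had reads in 3 earlier libraries, at 0.0379 CPM in replicate 2 of 14 dbi, 0.0724 CPM in replicate 2 of 0 dbi and 0.931 CPM in replicate 2 of 2 dai, and reached 257 and 555 CPM at 21 dai. Its ratio was 180, and 449 without replicate 2 of 2 dai. Cc02_g13800 was between 0 and 0.568 CPM in the 10 earlier libraries and at 272 and 97.6 CPM at 21 dai. In each of these 3 genes the 2 libraries of 21 dai differed by 1.74 to 2.78 times, far less than the distance to the earlier libraries, with replicate 1 higher in Cc01_g08940 and Cc02_g13800 and replicate 2 higher in Cc00_g34420. Cc09_g07020, which was at 0 to 1.02 CPM before and at 135 and 213 CPM at 21 dai, had a ratio of 88.8, or 145 without replicate 2 of 14 dbi.

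Of the 21 members with no earlier read, Cc11_g15790 was the most abundant, at 44.8 and 89.5 CPM at 21 dai. Against the floor of 3 counts in the shallowest earlier library (0.197 CPM), its lower value was at least 227-fold higher. Cc09_g04020, at 42.1 and 55.1 CPM, was at least 214-fold higher by the same floor. These are lower bounds per library and cover counting error only. The rule's ratio of such a gene moves with the pseudocount, and for Cc11_g15790 it was 90.6 with 0.5 CPM, 45.8 with 1 CPM and 449 with 0.1 CPM. The lower value at 21 dai of the 21 genes ran from 3.07 to 44.8 CPM with a median of 6.74 CPM, so a gene with no earlier read was as a rule a low-abundance gene at 21 dai also.

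**Figure D2:**
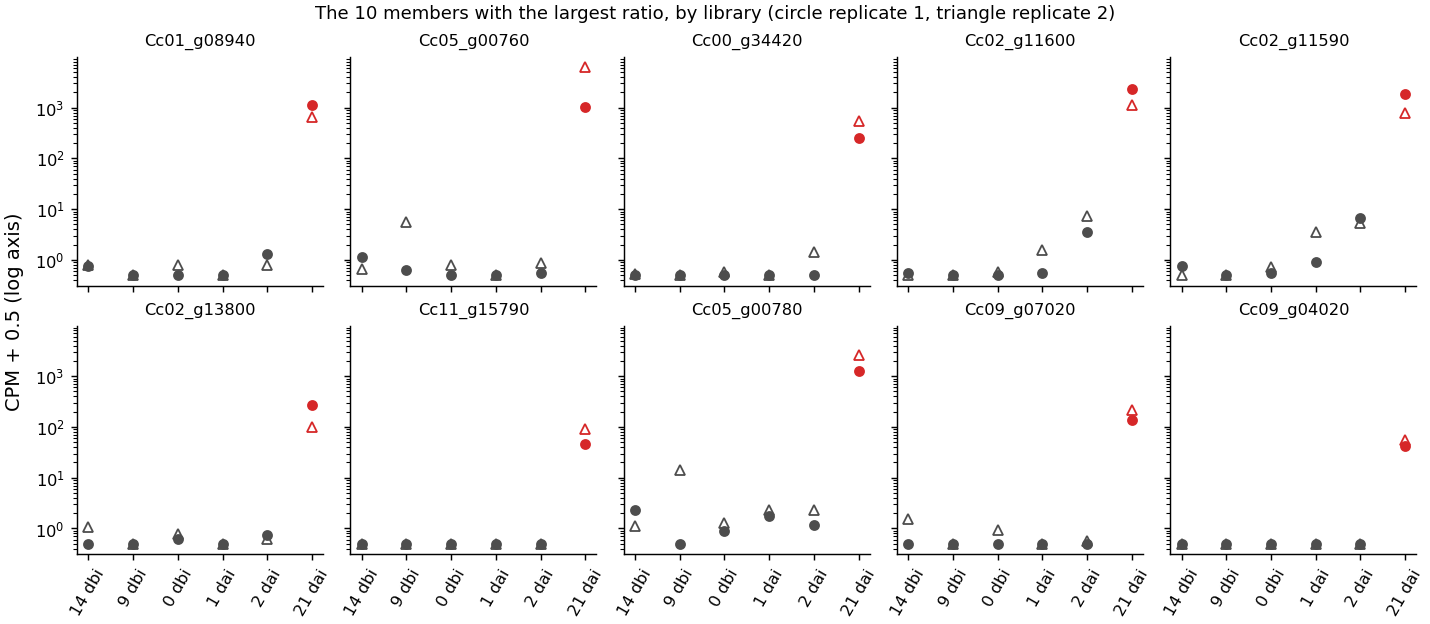
Levels of the 10 members with the largest ratio in each of the 12 libraries, as CPM + 0.5 on a log axis, with replicate 1 as a circle, replicate 2 as a triangle and 21 dai in red. Cc11_g15790 and Cc09_g04020 are at 0 in all 10 earlier libraries, Cc02_g11600 and Cc02_g11590 are already above their pretreatment level at 2 dai, and Cc05_g00760 and Cc05_g00780 have a single higher value in replicate 2 of 9 dbi (5.05 and 13.6 CPM).

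Abundance at 21 dai spanned 3 orders of magnitude. The lower of the 2 libraries was 3.07 to 3685 CPM, with a median of 23.8 CPM against 7.53 CPM over all genes, a comparison that the rule itself favours. It was at least 10 CPM in 237 members, at least 100 CPM in 58, at least 500 CPM in 13 and at least 1000 CPM in 5. Abundance followed the earlier level, as the fixed fold requires: the median of the lower value was 9.99 CPM in the silent members, 35.9 CPM in those with a highest earlier value of 1 to 10 CPM and 229 CPM in those at 10 CPM or more. When all genes were ranked by the lower value of 21 dai, 2 members were among the first 20, 7 among the first 50 and 41 among the first 1000.

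By the lower value of 21 dai, the most abundant member was Cc03_g14330, the 4th gene of the whole table, with 3957 and 3685 CPM. Before that it was at 17.9 and 4.96 CPM at 14 dbi, 0.584 and 0 CPM at 9 dbi, 0.327 and 144 CPM at 0 dbi, 4.10 and 8.63 CPM at 1 dai and 18.8 and 27.7 CPM at 2 dai. The 2 libraries of 0 dbi therefore differed widely, and the ratio of 25.5 was set by the higher of them. Cc01_g12640 had the narrowest earlier range in fold of the 10 most abundant members, at 7.64 to 28.6 CPM in the 10 earlier libraries and at 648 and 653 CPM at 21 dai.

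Cc01_g04380 was at 0 to 0.0757 CPM in the libraries of 14 and 9 dbi, at 0 and 4.45 CPM at 0 dbi, 0 in both libraries of 1 dai, 1.81 and 12.0 CPM at 2 dai, and 845 and 1154 CPM at 21 dai. Cc00_g35890, at 17.8 to 102 CPM before and 990 and 926 CPM at 21 dai, and Cc03_g03600, at 0 to 99.6 CPM before and 924 and 1559 CPM at 21 dai, were abundant members with a high level before. Their ratios were 9.04 and 9.24, and only 3 members (Cc00_g35890, Cc03_g14330 and Cc05_g00770) had reached 100 CPM in an earlier library.

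Together the 300 members held 4.0% of the reads in genes in replicate 1 of 21 dai (95% Wilson interval 3.99% to 4.01%) and 4.60% in replicate 2 (4.60% to 4.61%). In the 10 earlier libraries they held 0.0334% to 0.0896%, with a median of 0.0560%. The intervals cover counting error only, since reads without molecular identifiers are not independent molecules. Of all reads of the files, unassigned reads included, the share was 1.17% and 2.76%, a wider gap that goes with the share of reads that lay in genes (29.2% and 59.9%). By time point, the summed level of the members was 560 ± 9.33 CPM at 14 dbi, 461 ± 165 CPM at 9 dbi, 612 ± 394 CPM at 0 dbi, 454 ± 20.7 CPM at 1 dai, 808 ± 124 CPM at 2 dai and 43009 ± 4274 CPM at 21 dai (SD, n = 2 libraries each). The 2 libraries of 0 dbi lay farthest apart (334 and 891 CPM), and both libraries of 2 dai (720 and 896 CPM) were above those of 14 dbi, 9 dbi and 1 dai.

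Silent members took only a small part of this share. The 126 silent genes held 0.427% of the reads in genes in replicate 1 of 21 dai (0.423% to 0.431%) and 0.332% in replicate 2 (0.330% to 0.334%), which is 10.7% and 7.21% of the reads of all members. The 138 members at 1 to 10 CPM before held 39.4% and 37.7% of the members' reads, and the 36 at 10 CPM or more held 49.9% and 55.1%. Their reads were also concentrated in few genes, since 13 members in replicate 1 and 8 in replicate 2 were enough for 50 percent of them. The summed level of the silent members was 11.6 ± 2.33 CPM at 14 dbi, 0.727 ± 0.615 CPM at 9 dbi, 11.1 ± 6.42 CPM at 0 dbi, 2.82 ± 2.56 CPM at 1 dai, 17.6 ± 0.524 CPM at 2 dai and 3796 ± 674 CPM at 21 dai (SD, n = 2). The low sums at 9 dbi and 1 dai lie in the 4 libraries with few low counts.

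**Figure D3:**
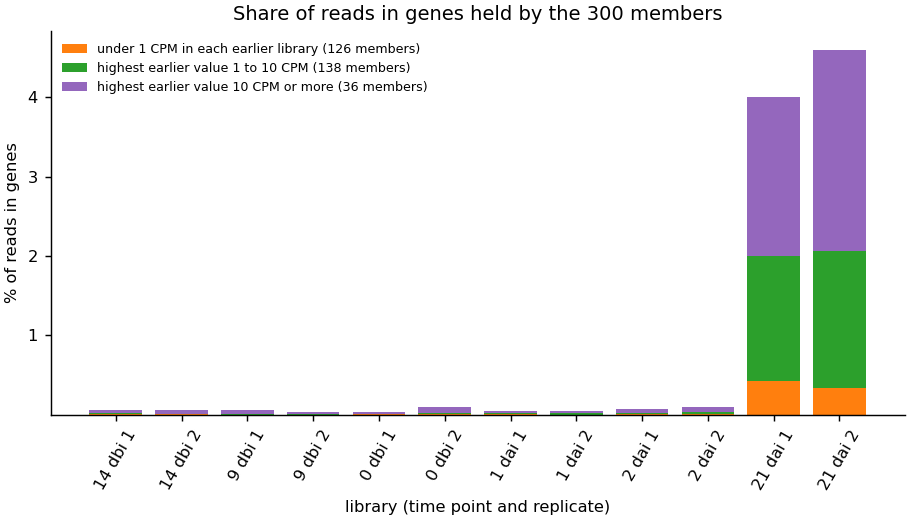
Percent of reads in genes held by the 300 members in each library, stacked by their highest value before 21 dai. The bars reach 4.0% and 4.60% at 21 dai and stay at or under 0.0896% in the 10 earlier libraries, and the 126 silent members (orange) form 0.427% and 0.332% of the reads in genes at 21 dai.

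Both libraries of 21 dai were high for each member, as the rule required, but they differed in level. The 2 values differed by a median of 1.45 times over the members, by at most 1.5 times in 158 and by over 2 times in 81. Neither library was higher throughout, with 161 members higher in replicate 1 and 139 in replicate 2. Among members at 10 CPM or more in both libraries the median was 1.41 times, and among all 11761 genes at that level it was 1.33 times. The largest differences were those of Cc05_g00760 (1008 and 6188 CPM, 6.14 times), Cc00_g04920 (26.0 and 143 CPM, 5.50 times) and Cc03_g05080 (56.0 and 10.9 CPM, 5.14 times). Replicate 1 had the higher share of low mapping quality, and its part in these differences was not tested.

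Members lay next to each other in the gene order of the AUK_PRJEB4211_v1 annotation more often than other genes lay next to a member: 34 of 300 members (11.3%) had a member beside them, against 525 of 25274 other genes (2.08%). No test was run on this difference. They formed 16 runs, of which 14 were pairs and 2 were of 3 genes. The members were spread over all 11 chromosomes, at 0.963% (chromosome 6) to 1.80% (chromosome 4) of each chromosome's genes, and 30 were on scaffolds with no chromosome.

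The run on chromosome 5 held 3 of the 5 most abundant members by the lower value of 21 dai. Cc05_g00760 was at 0 to 0.657 CPM in 9 of the earlier libraries and 5.05 CPM in replicate 2 of 9 dbi, and at 1008 and 6188 CPM at 21 dai. Cc05_g00770 was already at 21.9 to 194 CPM in the earlier libraries and reached 3438 and 6563 CPM. It took the 5th place in the whole table by the lower value. Cc05_g00780 was at 0 to 1.86 CPM in 9 earlier libraries and 13.6 CPM in replicate 2 of 9 dbi, and at 1257 and 2640 CPM at 21 dai. All 3 were higher in replicate 2 of 21 dai, by 1.91 to 6.14 times. The ratios of Cc05_g00760 (182) and Cc05_g00780 (89.3) rested on replicate 2 of 9 dbi, without which they were 871 and 532. With replicate 2 of 21 dai alone, the ratio of Cc05_g00760 was 1115.

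These 3 genes held 0.570% of the reads in genes in replicate 1 of 21 dai (0.566% to 0.575%) and 1.54% in replicate 2 (1.53% to 1.54%), or 14.3% and 33.4% of the reads of all members. The gene before them, Cc05_g00750, was the reverse, at 74.0 and 19.3 CPM at 14 dbi, 14.4 and 4.92 CPM at 9 dbi, 1.85 and 7.46 CPM at 0 dbi, 0 to 0.137 CPM at 1 and 2 dai and 0.297 and 2.88 CPM at 21 dai. The gene after them, Cc05_g00790, had no read in any library. Neither flanking gene was raised at 21 dai.

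On chromosome 1, Cc01_g19230, Cc01_g19240 and Cc01_g19250 were silent and of lower abundance. They were at 0 to 0.379 CPM in the 10 earlier libraries, and at 21 dai Cc01_g19230 was at 40.4 and 15.9 CPM, Cc01_g19240 at 15.1 and 5.02 CPM and Cc01_g19250 at 82.2 and 19.9 CPM. All 3 were higher in replicate 1, the opposite of the run on chromosome 5. The flanking gene Cc01_g19260 was at 11.1 to 27.2 CPM before and 41.1 and 23.5 CPM at 21 dai, and Cc01_g19220 was at 0 to 4.27 CPM before and 0.595 and 0.324 CPM at 21 dai, so neither came near the rule.

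A pair on chromosome 2, Cc02_g11590 and Cc02_g11600, had the next highest levels among the runs. Cc02_g11590 was at 0 to 0.263 CPM in the 6 libraries of 14, 9 and 0 dbi, at 0.410 and 2.98 CPM at 1 dai, 6.13 and 4.85 CPM at 2 dai and 1875 and 779 CPM at 21 dai. Cc02_g11600 was at 0 to 0.0724 CPM in the first 6 libraries, at 0.0585 and 1.09 CPM at 1 dai, 3.11 and 6.87 CPM at 2 dai and 2321 and 1140 CPM at 21 dai. Both were higher in each library of 2 dai than in any library of 14, 9, 0 dbi or 1 dai. Where neighbouring members are near-identical copies, reads that fit more than 1 of them may have been left out or divided, so the split among the genes of a run is uncertain.

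**Figure D4:**
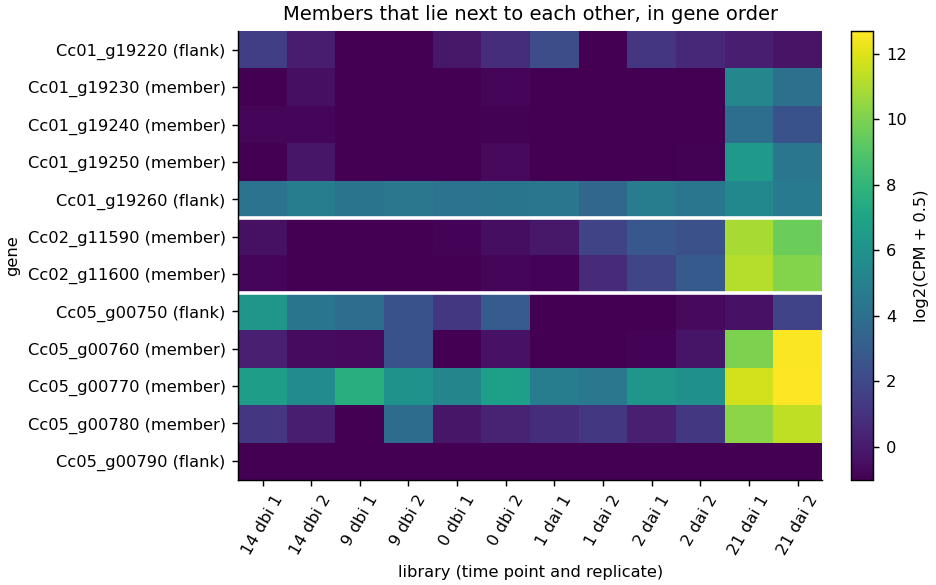
Levels as log2(CPM + 0.5) of 3 runs of neighbouring members and of the flanking genes of the runs of 3, in gene order (rows) and by library (columns). In each run the members are high in both libraries of 21 dai, whereas the flanking genes Cc01_g19220, Cc05_g00750 and Cc05_g00790 are not and Cc01_g19260 is at a similar level throughout.

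The study is about the *CcGH3* genes, which encode enzymes that join auxin to amino acids. None of the 18 was a member, and the highest ratio among them was 2.46, for *CcGH3.6b*.

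The time points before 21 dai were then compared to ask whether the members had begun to move earlier. The highest earlier value lay at 2 dai for 107 of the 279 members with an earlier read (38.4%), against 22.6% of all genes with an earlier read. It lay at 14 dbi for 64 members (22.9%, all genes 19.3%), at 0 dbi for 51 (18.3%, all genes 15.3%), at 1 dai for 32 (11.5%, all genes 20.7%) and at 9 dbi for 25 (8.96%, all genes 22.2%). Of the 107 members with it at 2 dai, 70 had it in replicate 2, the deepest library (36525500 reads in genes). At 1 CPM or more in both libraries were 45 members at 14 dbi, 26 at 9 dbi, 52 at 0 dbi, 54 at 1 dai and 97 at 2 dai. In 1 library only were 76, 45, 65, 55 and 40, respectively. Of all genes, 63.6% (replicate 2 of 9 dbi) to 70.5% (replicate 2 of 2 dai) were at 1 CPM or more per earlier library. The share of all genes in both libraries was not counted, so nothing is read from these counts about the members. The libraries of 9 dbi and 1 dai are those with few low counts. How far this or depth sets these shares and counts was not tested, and the shares were not recounted without those libraries. The median member reached 1.71% of its mean level at 21 dai by 2 dai, a percent that the rule itself keeps low.

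Tests used edgeR's quasi-likelihood fit on the counts of all 12 libraries, with Benjamini-Hochberg adjustment over the 20745 genes tested and a call at an adjusted p under 0.05. All 300 members passed the filter on low counts with the libraries of 21 dai in the fit, and 178 passed it on the 10 libraries before 21 dai alone. Counts from that fit are given beside the others, because far fewer members were called in it.

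Over the 5 earlier time points, 42 of the 300 members changed (14.0%), close to the background of 12.3% of all genes tested. On the 10 libraries alone 5 of 178 members were called (2.81%), against 9.31% of all genes, and without the libraries of 9 dbi and 1 dai 12 of 300 were called (4.0%), against 3.07% of all genes. The count also fell when either library of 1, 2 or 21 dai was left out, as did the count over all genes.

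At 1 and 2 dai together, 34 members were higher than in the pretreatment (11.3%, background 12.9%) and 3 were lower (1.0%, background 11.6%). On the scale of log2(CPM + 0.5), the median difference was 0.06 over the members and 0.00 over all 25574 genes, with 171 members above 0 and 108 below. On the 10 libraries alone, 19 of 178 members were higher (10.7%, background 11.7%) and 0 lower (background 11.1%). The share of members that rose was thus near that of all genes in both fits. Nothing is read from the share that fell, because the rule chose genes with low earlier values, which leave little room for a fall. Without the libraries of 9 dbi and 1 dai, when 2 dai was compared with 14 and 0 dbi, 25 members were higher (8.33%, all genes 3.79%) and 1 lower (0.333%, all genes 4.08%), and 15 of the 37 calls were kept. All 300 members passed the filter on low counts there with the libraries of 21 dai included. No fit left out both those libraries and the ones of 9 dbi and 1 dai. Nothing is therefore read from the higher share of members that rose there. No read at 9 dbi was found for 26 of the 34 members that rose, and for 207 of all 300 members. Leaving out either library of 2 dai lowered the count of members called and also that of all genes called.

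Cc00_g27520 had the lowest adjusted p among these members. It had no read in any of the 6 pretreatment libraries, was at 7.38 and 12.3 CPM at 1 dai and 4.45 and 14.1 CPM at 2 dai, and at 112 and 131 CPM at 21 dai. Its lowest value at 1 and 2 dai was at least 22.6-fold higher than the floor of 3 counts in the shallowest pretreatment library (edgeR, adjusted p = 0.000188). It was called in the fit on 10 libraries (adjusted p = 0.00187) and without 9 dbi and 1 dai (adjusted p = 0.00457), and reads of this gene were found in each library from 1 dai on.

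Cc07_g10080 was at 0.855 and 1.59 CPM at 14 dbi, 0 in both libraries of 9 dbi, 0.545 and 2.57 CPM at 0 dbi, 6.97 and 23.9 CPM at 1 dai, 14.5 and 36.0 CPM at 2 dai and 386 and 368 CPM at 21 dai. Its lowest value at 1 and 2 dai lay above the highest of the pretreatment. The gene was called with all libraries (edgeR adjusted p = 0.000337), where the fitted fold change depends on the prior count because 9 dbi has no read. Without the libraries of 9 dbi and 1 dai the log2 fold change was 3.93 (edgeR adjusted p = 0.00908).

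Cc05_g04990 was at 0 to 6.55 CPM in the pretreatment, at 25.8 and 25.9 CPM at 1 dai, 34.7 and 41.3 CPM at 2 dai and 385 and 305 CPM at 21 dai, with a log2 fold change of 4.23 ± 0.58 at 1 and 2 dai (SE, edgeR adjusted p = 0.00081). Cc05_g09630 had reads in all 12 libraries, at 1.15 to 2.68 CPM in the pretreatment, 3.98 and 5.03 CPM at 1 dai, 6.70 and 13.0 CPM at 2 dai and 231 and 185 CPM at 21 dai, and its log2 fold change of 1.80 ± 0.28 (SE, edgeR adjusted p = 0.00141) did not depend on libraries with no read. The groups did not overlap in either gene.

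Cc06_g17730 was at 0 to 0.526 CPM in the pretreatment, at 2.05 and 1.84 CPM at 1 dai, 1.60 and 1.86 CPM at 2 dai and 27.8 and 29.3 CPM at 21 dai (edgeR adjusted p = 0.00176). The pair Cc02_g11590 and Cc02_g11600 was also called (edgeR adjusted p = 0.00188 and 0.00191), the latter not without replicate 2 of 1 dai. These 3 genes too had no read at 9 dbi. Without the libraries of 9 dbi and 1 dai they kept their calls, with log2 fold changes of 2.47, 5.16 and 6.81, as they did on the 10 libraries before 21 dai. By contrast, Cc11_g06640 was called higher with all libraries (edgeR adjusted p = 0.00441), whereas its log2 fold change was -1.0 without those of 9 dbi and 1 dai (edgeR adjusted p = 0.246). It was at 0 in both libraries of 9 dbi and at 2.62 to 8.25 CPM in the other 4 pretreatment libraries, against 2.72 to 8.80 CPM at 1 and 2 dai.

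Of the 34 members that rose, 12 had their lowest value at 1 and 2 dai above their highest value in the pretreatment. The share of all genes called higher with such a gap was not counted, so nothing is read from these 12 about the members. Under 1 CPM in each pretreatment library were 15 of the 34, and 156 of all 300 members. At 2 dai these 34 had reached a median of 4.73% of their mean level at 21 dai, which the rule also keeps low. The 3 members called lower, named after their values were seen, were Cc02_g00420, Cc00_g14140 and Cc06_g05330. Cc00_g14140 was at 2.42 to 12.6 CPM in the pretreatment, 0.117 and 1.59 CPM at 1 dai, 5.66 and 7.09 CPM at 2 dai and 237 and 297 CPM at 21 dai, so that its low values lay at 1 dai. Cc02_g00420 likewise had its lowest values, 0.410 and 0 CPM, at 1 dai. Cc06_g05330 was at 0 to 1.88 CPM in the pretreatment, 0 in both libraries of 1 dai, 0.346 and 0.246 CPM at 2 dai and 52.4 and 22.1 CPM at 21 dai. None of the 3 was called lower on the 10 libraries before 21 dai.

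**Figure D5:**
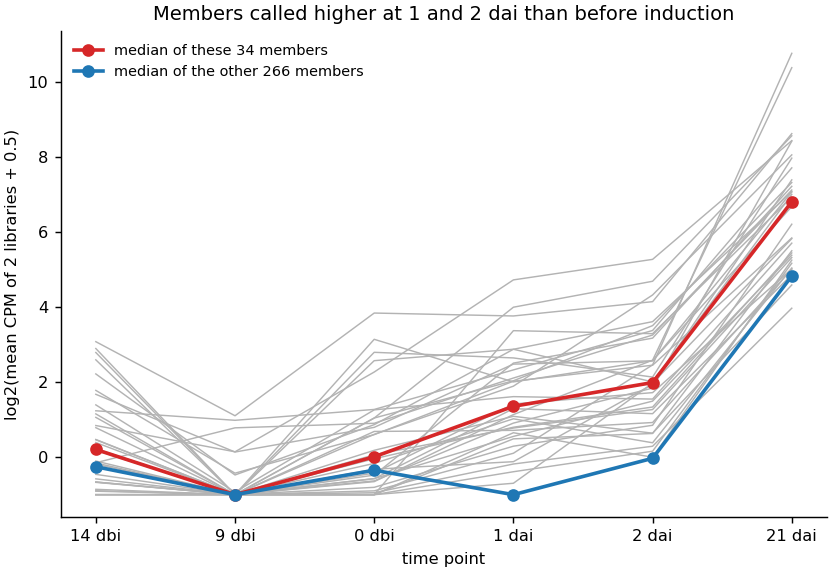
Mean level of the 2 libraries per time point, as log2(mean CPM + 0.5), for the 34 members called higher at 1 and 2 dai than in the pretreatment (grey lines, red median) and the median of the other 266 members (blue). The red median is 0.01 at 0 dbi, 1.35 at 1 dai, 1.99 at 2 dai and 6.80 at 21 dai, the blue one -0.35, -1.0, -0.03 and 4.83, and both medians are at the value of no read (-1.0) at 9 dbi.

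At 1 dai against 0 dbi, the first day on the induction medium, 2 members were higher (background 2.94% of genes) and 18 lower (6.0%, background 4.89%). Those higher were Cc00_g27520 and Cc07_g10080, at 0 and at 0.545 and 2.57 CPM at 0 dbi, respectively. The first was at least 45.1-fold higher at 1 dai than the floor of 3 counts at 0 dbi (edgeR adjusted p = 0.00628), and the second had a log2 fold change of 3.12 (edgeR adjusted p = 0.0434). The call of Cc07_g10080 was lost in 11 of 20 alternative fits, among them that with a term for low mapping quality. That of Cc00_g27520 was lost in 1 of 20.

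Of the 18 lower members, 16 had no read in either library of 1 dai, and the same 16 had none at 9 dbi. All 18 had reads in both libraries of 2 dai. Cc05_g07620 showed this pattern, with 1.97 and 1.70 CPM at 14 dbi, 0 in all 4 libraries of 9 dbi and 1 dai, 3.54 and 2.61 CPM at 0 dbi, 1.17 and 2.00 CPM at 2 dai and 51.9 and 95.2 CPM at 21 dai. Its lower value at 0 dbi was at least 14.8-fold higher than the floor of 3 counts at 1 dai (edgeR adjusted p = 0.00544). Cc06_g20060, Cc01_g11390 and Cc09_g00350 were at 0 in the same 4 libraries. They were at 1.92 to 3.16, 1.04 to 2.32 and 0.491 to 1.01 CPM at 0 dbi. Their lower values there were at least 10.9-fold, 5.90-fold and 2.80-fold higher than the same floor. Such bounds cover counting error only. The 4 libraries are those with few genes at 1 to 10 reads. Whether a count of 0 in them stands for more than 3 counts was not tested, nor was the part of this in the calls. On the 10 libraries alone only Cc00_g27520 (higher) and Cc05_g07620 (lower) were called, 0.562% of the 178 members in either direction, against 2.46% (higher) and 3.92% (lower) of all genes. The share of lower members was thus above that of all genes in the fit on 12 libraries and under it in the fit on 10.

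The count of 20 calls depended on single libraries. It fell when either library of 1, 2 or 21 dai or replicate 1 of 0 dbi was left out, and rose without either library of 9 dbi. Each such fit leaves a single library at a time point. The count over all genes moved in the same direction in each of them. Without either library of 14 dbi, however, the count of members rose and that over all genes fell.

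From 1 to 2 dai, 0 members were called by edgeR in either direction, and 0 of all genes (background 0% for higher and 0% for lower). At an unadjusted edgeR p under 0.05, 69 of 300 members were higher and 4 lower at 2 dai. Of the 20745 genes tested, 1322 were higher and 438 lower. DESeq2 called 23 of the 300 members, each of them higher at 2 dai (7.67%, all genes 0.943%). It called 244 of 20252 genes in either direction (1.2%). All 300 members were tested in both fits with the libraries of 21 dai included. On the 10 libraries before 21 dai, edgeR called 0 of 178 members and 0 of all genes, and DESeq2 was not run on them. Nothing is therefore read from the higher shares of members at 2 dai. On the scale of log2(CPM + 0.5), the median difference was 0.36 over the members and 0.04 over all genes, with 222 members above 0 and 38 below. No read in either library of 1 dai was found for 154 members, and the part of this in the difference was not tested. From 14 and 0 dbi to 2 dai, which leaves out the 4 libraries with few low counts, the median difference was 0.11 over the members and 0.05 over all genes.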

How the data were processed

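RNA-seq libraries of leaves and leaf explants (6 time points, 2 libraries each) were analysed from the whole-number read counts per gene that the authors deposited, 1 file per library, not normalized. According to the submitters' notes the tools were FastQC 0.11.5, cutadapt 1.14 and HTSeq 0.10.0. Genome build, aligner and strand setting were "not given in the sources used here", so reads of a gene and of an antisense partner cannot be told apart. The 5 lines of unassigned reads (40.1% to 70.8% of reads) stayed out of library sizes and tests. All 25574 IDs matched a locus tag of the AUK_PRJEB4211_v1 annotation, used only for the order and chromosome of genes. The prefix of each ID gave the same placement.

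CPM is the count over the reads in genes. The 2 libraries of a time point differed by more than sampling noise (chi-square per degree of freedom 33.4 to 300), and correlated at 0.915 to 0.980 over all genes and 0.645 to 0.930 over the members (Pearson, log2 scale). Counts were tested with edgeR 4.0.16 (R 4.3.3, limma 3.58.1): TMM, filterByExpr by time point, quasi-likelihood F tests and time point as the only factor. The fit was tested on simulated data. Bounds against a gene with no read use a floor of 3 counts in the shallowest library of the group and cover counting error only.

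Members and lists were chosen with earlier results of these data known. Named members were the 10 with the largest ratio, the 10 with the highest lower value at 21 dai and up to 5 called per early comparison. Also named were the 3 with the largest difference between the libraries of 21 dai and the 3 on either side of the threshold. The 3 longest runs of neighbours were named too. Planned lists of gene functions, protein and promoter motifs and cell type markers were not used here, since no descriptions or sequences were at hand. Alternatives were other pseudocounts, folds, size factors and filters, DESeq2 1.42.0, a replicate block, a low mapping quality term (split at 15%), the 10 libraries before 21 dai, each library left out and, chosen after seeing the data, the libraries of 9 dbi and 1 dai left out.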

Additional observations from a re-analysis of the deposited data

How the results depend on the processing

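The rule was passed by 1089 genes with a fold of 2 and by 245 with a fold of 8, against 526 with a fold of 4, and by 451 and 680 with a pseudocount of 1 and 0.1 CPM. Leaving out single libraries gave 531 to 724 genes, the highest counts being 718 and 724 without replicate 1 or 2 of 21 dai, where the lower of 2 values no longer applies. The mean share of reads in genes held by the members at 21 dai was 4.30%, 1.96% with all reads as the denominator and 3.80% without the member with the most reads. Silent members numbered 126, or 21 when silent meant no read.

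With single libraries left out, the members called ranged from 12 to 54 over the 5 earlier time points (main count 42), 0 to 31 at 1 dai against 0 dbi (20), 0 to 0 at 2 dai against 1 dai (0) and 22 to 46 at 1 and 2 dai against the pretreatment (37). Except at 2 dai against 1 dai, the counts over all genes moved also. DESeq2 called 107, 44, 23 and 51. These were 35.7%, 14.7%, 7.67% and 17.0% of the members, against 29.4%, 17.1%, 1.2% and 31.5% of all genes. DESeq2 was run only with the libraries of 21 dai included, so nothing is read from the shares that are higher in the members. The fit on 10 libraries called 5, 2, 0 and 19 (2.81%, 1.12%, 0% and 10.7%, all genes 9.31%, 6.38%, 0% and 22.8%). The term for low mapping quality gave 12 calls at 1 dai against 0 dbi (4.0%, all genes 7.45%). Without the libraries of 9 dbi and 1 dai, 12 members (4.0%, all genes 3.07%) were called over the remaining time points before 21 dai, and Cc11_g06640 reversed to -1.0. The causes were not tested, other than that fewer members are tested on 10 libraries.

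With the replicate number as a block, 36, 16, 0 and 34 members were called. The numbers were not taken to pair the samples, since 5 of 15 correlations of deviations between time points were over 0.1 (range -0.05 to 0.38). These 5 were among the 6 pairs of 14 dbi, 0 dbi, 2 dai and 21 dai (0.06 to 0.38), whose replicate 1 had the high share of low mapping quality, and the other 9 pairs ran from -0.05 to 0.02. Among named members, 502 alternative calls kept their side of the threshold, 58 lost it and 1 reversed. For the 21 members with no earlier read, counting error alone allows 0.0821 to 0.197 CPM (3 counts) in the 10 earlier libraries. This is under the 1 CPM that defines silent members.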
